A study of Homo sapiens with 16 samples.

Results

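The H3K27ac peaks near 8 genes of megakaryocytes and platelets, ITGA2B, ITGB3, GP1BA, GP9, PF4, PPBP, THBS1 and VWF, were examined in K562 cells. The genes were chosen by name. A peak was counted for a gene when at least 1 bp of it lay in the gene body or within 10 kb of either end (the gene window), and when its deposited -log10 q-value was at least 2, a q-value of at most 1%. All 8 genes were found in the RefSeq table of GRCh38.p14, from which 19974 protein-coding genes of the autosomes and the X chromosome were used. K562 is an established human line from a chronic myelogenous leukemia, and all libraries came from fixed K562 chromatin with no other treatment. In the fixed-antibody arm, a constant 0.25 µg of antibody to H3K27ac met 7 amounts of chromatin, measured by its DNA content (DNA_chrom), that rose from 0.31 to 20 µg by doubling, which gave antibody titers of 32, 16, 8, 4, 2, 1 and 0.5. In the normalized arm, the same 7 amounts of DNA_chrom were all kept at titer 1. Each condition has 1 library and 1 peak list, and a library ID such as 0.31-T32 gives DNA_chrom in µg and the titer. Only 10-T1a and 10-T1b are the same condition, and each was placed in an arm by the input library its peaks were called against. The arms used different input libraries, so arm and input cannot be told apart. In the fixed-antibody arm the titer fell as DNA_chrom rose, and these cannot be told apart either.

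Megakaryocytes are the bone marrow cells that shed platelets, and they supply them with adhesion receptors and with granules filled with clotting and wound-repair proteins. The integrins ITGA2B and ITGB3 pair to form the platelet receptor for fibrinogen, and GP1BA and GP9 belong to the receptor complex for von Willebrand factor, which VWF encodes. PF4 and PPBP encode chemokines of the alpha granules, which also carry the adhesive glycoprotein THBS1. H3K27ac, acetylation of lysine 27 on histone H3, marks active promoters and enhancers, and K562 cells are known for features of the red cell and the megakaryocyte lineages.

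The lists hold no reads, so the depth at each peak is unknown here. The paper does report read pairs and mapping for each library. By its counts, 0.31-T1 had the lowest share of uniquely mapped pairs and the lowest library complexity, followed by 0.62-T1. Both are in the normalized arm. The 14 lists held 64083 to 82143 peaks at this threshold, and these covered 32.8 to 65.3 Mb with the fixed antibody and 54.4 to 75.3 Mb with the normalized antibody. Markers of the line were looked up in the lists. The erythroleukemia markers GATA1, KLF1, TAL1, NFE2, LMO2, HBG1, HBG2, TFRC and EPOR each had a peak within 1 kb of the transcription start site (TSS) in all 14 lists. So did 48.2% of all genes with a TSS, and such peaks alone do not identify the line. Endothelial cells also make VWF and THBS1, and of the 4 endothelial markers CDH5, TEK and KDR held no peak in their windows in any list, while PECAM1, which platelets also carry, held one in all 14 lists.

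The 250 bases before the TSS are shown for the 4 members found in the RefSeq promoter table (GRCh38.p14), because they run from a promoter with a peak in every list to promoters with none. They are ITGA2B (chr17:44389650-44389899, minus strand), GP9 (chr3:129060529-129060778, plus strand), PPBP (chr4:73988191-73988440, minus strand) and THBS1 (chr15:39580829-39581078, plus strand), and ITGB3, GP1BA, PF4 and VWF are not shown. Capitals mark matches on either strand to a GATA motif (the letters GATA after A or T and before A or G) or to an ETS motif (AGGAAG, with CCGGAA as its alternative), and a match on the other strand appears as its reverse complement. GATA and ETS factors are the families to which GATA1 and FLI1, regulators of megakaryocyte genes, belong.
ITGA2B: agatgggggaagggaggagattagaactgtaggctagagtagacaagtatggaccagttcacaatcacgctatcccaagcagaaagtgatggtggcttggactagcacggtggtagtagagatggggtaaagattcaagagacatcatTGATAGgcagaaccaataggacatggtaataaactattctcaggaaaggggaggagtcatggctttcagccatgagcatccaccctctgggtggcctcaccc
GP9: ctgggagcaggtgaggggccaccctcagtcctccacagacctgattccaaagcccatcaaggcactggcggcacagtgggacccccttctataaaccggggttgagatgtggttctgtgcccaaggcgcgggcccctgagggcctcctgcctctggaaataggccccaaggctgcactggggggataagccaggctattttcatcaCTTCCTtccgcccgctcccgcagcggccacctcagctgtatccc
PPBP: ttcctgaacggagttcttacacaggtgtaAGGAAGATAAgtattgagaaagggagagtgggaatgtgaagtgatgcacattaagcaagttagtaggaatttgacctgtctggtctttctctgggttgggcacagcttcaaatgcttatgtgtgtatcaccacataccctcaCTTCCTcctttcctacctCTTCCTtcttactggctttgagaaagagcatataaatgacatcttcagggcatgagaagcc
THBS1: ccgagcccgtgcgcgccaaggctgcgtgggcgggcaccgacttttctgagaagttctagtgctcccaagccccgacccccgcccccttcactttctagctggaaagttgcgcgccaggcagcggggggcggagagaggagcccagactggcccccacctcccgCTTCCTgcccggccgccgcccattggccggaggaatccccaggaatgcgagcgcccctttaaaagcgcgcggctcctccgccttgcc
The ITGA2B promoter held 1 GATA match, from -102 to -97 bp, and no ETS match. The GP9 promoter held 1 ETS match, from -44 to -39 bp, and no GATA match. The PPBP promoter held a GATA match from -217 to -212 bp that overlaps an ETS match from -221 to -216 bp, and ETS matches at -79 to -74 bp and -61 to -56 bp. The THBS1 promoter held 1 ETS match, from -87 to -82 bp. Among the 15812 promoters of this length in the table, 17.6% held a GATA match, 43.0% an ETS match and 7.03% both, so a match is common and describes these letters only. The TSS had a peak within 1 kb in 14 lists for ITGA2B, in 11 for GP9 and in 0 for PPBP and THBS1. The GC content of the 4 promoters was 48.8%, 62.8%, 43.6% and 69.6% in the same order of ITGA2B, GP9, PPBP and THBS1.

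Among the 8 genes, the windows of the 4 receptor genes held peaks in every list, and those of the 4 granule genes held nearly none. The wider groups described below did not divide in this way. Of the other receptors, 9 of 16 had a peak in all 14 lists, and of the other granule and secreted proteins 6 of 12. ITGA2B, ITGB3, GP1BA and GP9 had a peak in their window in all 14 lists, which is 4 of the 8 genes, beside 61.4% of all protein-coding genes. PF4 and PPBP had a peak in 2 lists. THBS1 and VWF had none, as did 25.5% of all protein-coding genes. Absence from a list means that no peak passed the caller, and it is not a measurement of zero acetylation.

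**Figure D1:**
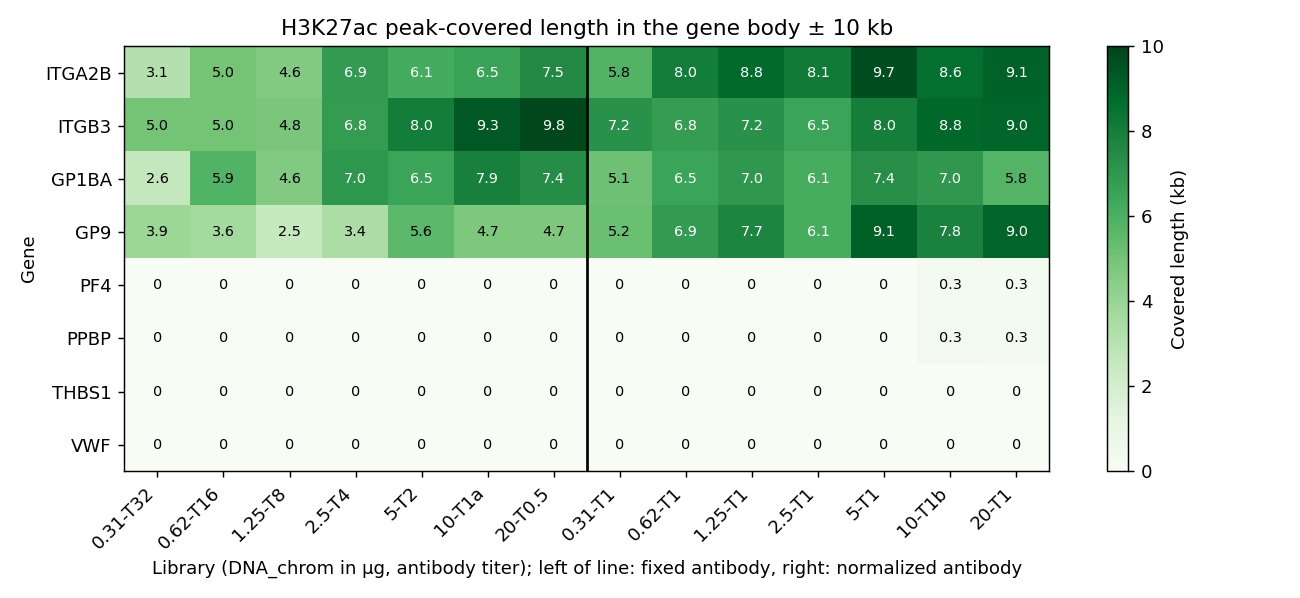
Length of the gene window covered by peaks (kb, color and printed number) for the 8 genes (rows) in the 14 lists (columns), with the fixed-antibody arm to the left of the line. The 4 receptor genes have values in every column, from 2465 bp (GP9 at titer 8) to 9848 bp (ITGB3 in 20-T0.5), and the 4 granule genes are at 0 except for PF4 and PPBP in 10-T1b and 20-T1.

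The windows differ in length, so levels were compared between genes as the percentage of the window covered by peaks. The median over the 14 lists was 28.6% for GP1BA (range 11.4% to 34.7%), 19.5% for GP9 (8.94% to 33.0%), 19.2% for ITGA2B (8.36% to 25.8%) and 9.01% for ITGB3 (6.04% to 12.3%). ITGA2B was above ITGB3 in 14 of 14 lists, and GP1BA was above ITGA2B in 14 of 14 as well. GP9 stood between these genes without being separated from either, since GP1BA was above GP9 in 11 lists and GP9 above ITGA2B in 9. The 12271 genes with a peak in every list had a median of 8.32%, with quartiles of 3.80% and 17.8%. In that set ITGB3 was near the middle, above 52.7% of the genes, and ITGA2B, GP9 and GP1BA were above 77.1%, 77.7% and 87.1% of them.

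ITGA2B, the alpha chain of the fibrinogen receptor and an early surface marker of megakaryocytes, lies at chr17:44372181-44389649 on the minus strand. Its covered length in the fixed-antibody arm was 3132 bp at the lowest (0.31-T32), 6147 bp at the median and 7508 bp at the highest (20-T0.5). In the normalized arm it was 5808 bp at the lowest (0.31-T1), 8572 bp at the median and 9671 bp at the highest (5-T1). The arms overlapped, and the libraries from the least chromatin were the lowest of each arm. The acetylation lay over the promoter and its upstream side: a merged region at chr17:44388845-44394751, from -5102 to 804 bp of the TSS, had a peak in all 14 lists and gave the strongest peak of the window in each of them. The fold enrichment of its strongest peak was 7.24 to 14.7 with the fixed antibody and 10.6 to 17.2 with the normalized antibody. Its covered length was 2138 to 5379 bp with the fixed antibody and 4715 to 5732 bp with the normalized antibody.

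Further peaks followed inside the ITGA2B gene. A region 2793 to 4093 bp after the TSS (chr17:44385556-44386856) had a peak in all 14 lists, with a fold enrichment of 4.59 to 10.4, and one 4283 to 5043 bp after it (chr17:44384606-44385366) in 12 lists. Between the promoter and these, a region 1322 to 1769 bp after the TSS had a peak in 5 normalized and 0 fixed-antibody lists, and one 2381 to 2740 bp after it in 3 normalized and 0 fixed-antibody lists. At the far end of the window, a region at chr17:44362381-44364040, within 1 kb of the TSS of FAM171A2, had a peak in 13 lists and belongs as much to that neighbor. Of the 14 merged regions in the window, 7 had a peak in 1 list only. Exons and introns were not assigned here.

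ITGB3, the beta chain of the same receptor, lies at chr17:47253827-47313743 on the plus strand, and its peaks lay deep inside the gene and seldom at its TSS. Its covered length was 4823 bp at the lowest (titer 8), 6802 bp at the median and 9848 bp at the highest (20-T0.5) in the fixed-antibody arm, and 6514 bp (2.5-T1), 7215 bp and 8982 bp (20-T1) in the normalized arm. The arms overlapped over most of this range. Regions at 20815 to 23743 bp after the TSS (chr17:47274642-47277570) and at 32415 to 38857 bp (chr17:47286242-47292684) had a peak in all 14 lists, with fold enrichments of 5.12 to 11.1 and 5.71 to 13.4. A region between them, 24571 to 26509 bp after the TSS (chr17:47278398-47280336), had a peak in 12 lists. Within 1 kb of the ITGB3 TSS, 5 lists had a peak, at a fold enrichment of 3.26 to 4.01, in 4 short regions of 198 to 363 bp that each had a peak in 1 or 2 lists. Among all genes with a TSS, 48.2% had a peak within 1 kb of it in all 14 lists and 38.6% in no list. The fourth region with a peak in 10 or more lists, at chr17:47322992-47324442, lies after the end of ITGB3 and within 1 kb of the TSS of EFCAB13.

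**Figure D2:**
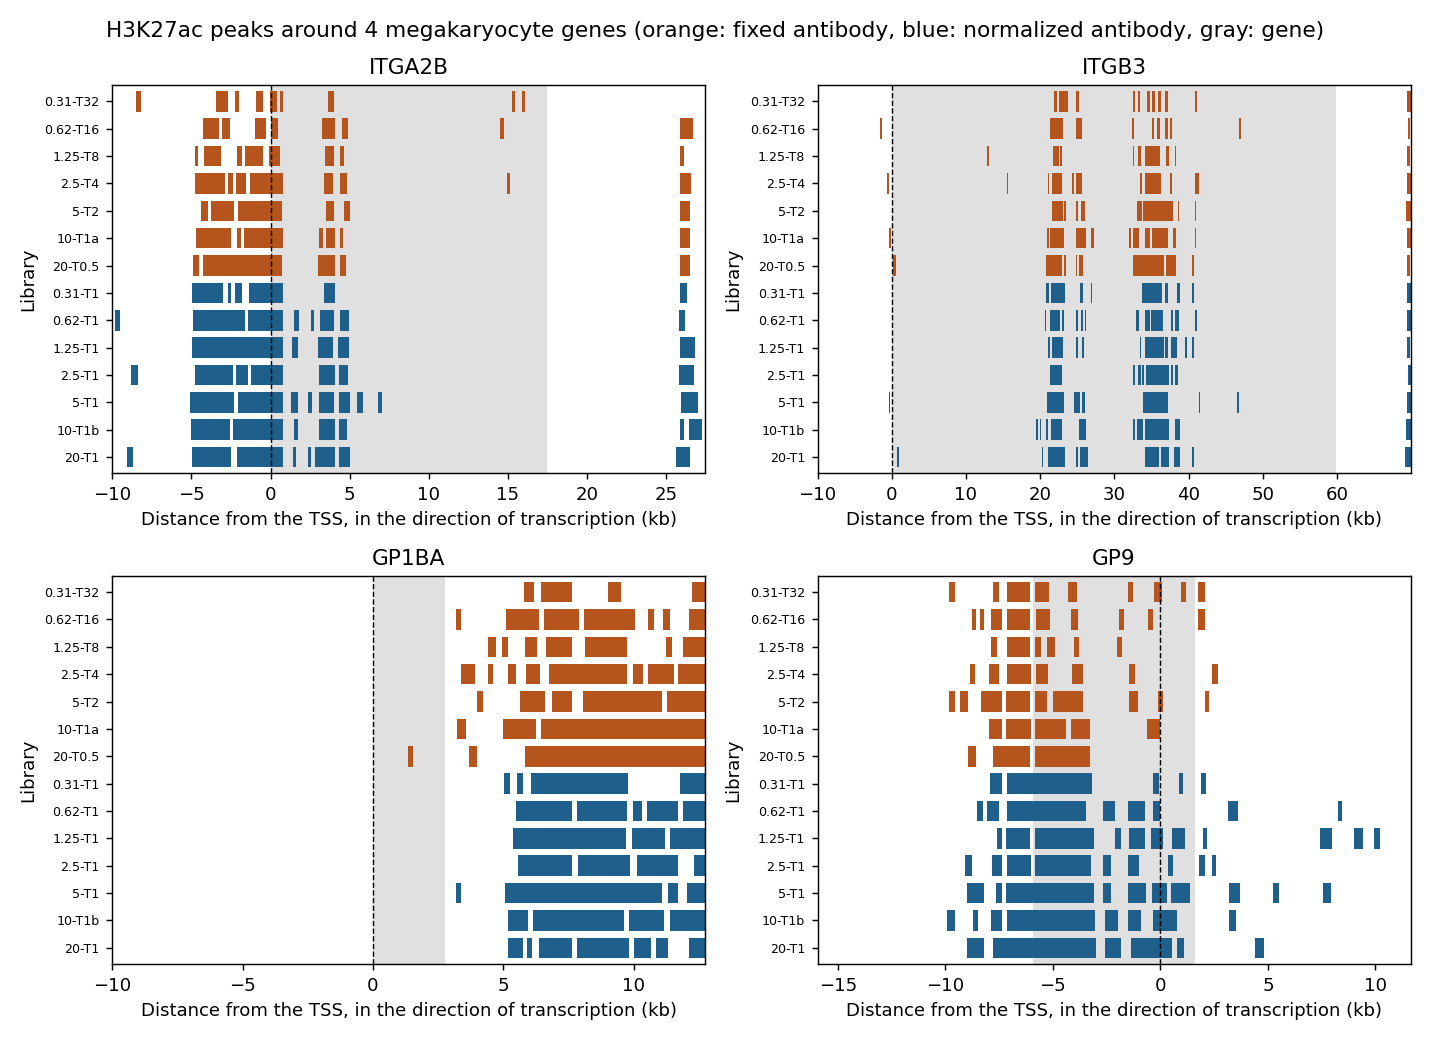
Peaks of the 14 lists (rows; orange, fixed antibody; blue, normalized antibody) against the distance from the TSS in kb, in the direction of transcription, for ITGA2B, ITGB3, GP1BA and GP9, with the gene record in gray and the TSS dashed. ITGA2B has peaks across its TSS in 14 lists, ITGB3 inside the gene from about 20815 to 38857 bp, GP1BA beyond its end from 4968 bp on, and GP9 before its TSS.

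GP1BA, the chain of the platelet receptor that binds von Willebrand factor, lies at chr17:4932277-4935023 on the plus strand. No list had a peak within 1 kb of its TSS, and its gene body held 1 peak of 202 bp, with a fold enrichment of 3.26, in 20-T0.5 and none in the other 13 lists. Its covered length of 2600 bp (0.31-T32) to 7902 bp (10-T1a) in the fixed-antibody arm, with a median of 6489 bp, and of 5123 bp (0.31-T1) to 7362 bp (5-T1) in the normalized arm, with a median of 6509 bp, therefore came from outside the gene. The arms overlapped. One merged region, chr17:4937245-4952240, starts 4968 bp after the TSS and had a peak in all 14 lists, with a fold enrichment of 6.25 to 18.8. It runs past the window and lies within 1 kb of the TSSs of ENO3 (an enolase), PFN1 (profilin, which binds actin), RNF167 (a ubiquitin ligase) and SLC25A11 (a mitochondrial carrier). The values of the GP1BA window cannot be told apart from those of these neighbors. With the gene body alone, a peak in all 14 lists was found for 3 of the 8 genes (ITGA2B, ITGB3 and GP9), beside 52.5% of all protein-coding genes.

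GP9, a small subunit of the same receptor complex, lies at chr3:129054845-129062406 on the plus strand, with the TSS of the promoter table at 129060779. Its covered length was 2465 bp at the lowest (titer 8), 3852 bp at the median and 5573 bp at the highest (5-T2) in the fixed-antibody arm, and 5199 bp (0.31-T1), 7730 bp and 9101 bp (5-T1) in the normalized arm. Only 5-T2 in the fixed-antibody arm exceeded the lowest normalized list. The strongest peaks lay upstream, in a region from -9302 to -2981 bp of the TSS (chr3:129051477-129057798) with a peak in all 14 lists. Its fold enrichment was 6.85 to 9.30 in the lists of titers 4 to 32, 14.4 to 18.2 in the fixed-antibody lists of titers 0.5 to 2, and 14.3 to 17.7 in the 7 normalized lists. Among all peaks of the same list, its percentile was 85.1 to 96.2, 95.3 to 97.8 and 93.5 to 98.5 in the same order. By this rank the groups overlapped. This division by titer was made after the values had been seen, and the lists of titers 4 to 32 all belong to the fixed-antibody arm. No peak covered a short stretch of this region in 9 of the 14 lists, 7 of the fixed-antibody arm and 2 of the normalized arm. The gap was 187 to 266 bp long, with a median of 227 bp, and in all 9 lists it held the bases from -6005 to -5845 bp, which include the start of the RefSeq gene record at -5.93 kb. This gap was noticed after the peaks were plotted, and the lists were called separately. At the GP9 TSS itself, a region from -1520 to 1363 bp of it (chr3:129059259-129062142) had a peak in 5 fixed-antibody and 7 normalized lists, with a fold enrichment of 3.31 to 7.03. A further region, from -2681 to -1711 bp of the TSS, had a peak in 2 fixed-antibody and 6 normalized lists.

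The 4 granule genes among the members gave little to measure. PF4 (chr4:73980811-73982124) and PPBP (chr4:73986439-73988190) are neighbors whose windows overlap, and they share their only peak, which lies after the end of PF4, 2655 to 2997 bp from its TSS (chr4:73979127-73979469). It covered 340 bp in 10-T1b with a fold enrichment of 3.50, and 278 bp in 20-T1 with a fold enrichment of 4.46. It ranked above 8.82% and 36.5% of the peaks of these lists by fold enrichment, and the other 12 lists had no peak there. Neither gene had a peak in its gene body or within 1 kb of its TSS. THBS1 (chr15:39581079-39599466) had no peak in any list. VWF (chr12:5948877-6124670) had none in a window of 195.8 kb, the longest of the 8, and among the 1670 genes with a window at least as long, 32.7% had none. The lists as deposited reach a q-value of 5.00%. In them, 4 of the 8 genes again had a peak in all 14 lists, beside 62.1% of all protein-coding genes.

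The fixed-antibody arm asks how the peaks change with the titer. As the titer rose, the covered length fell for 3 of the 6 members tested, ITGA2B, ITGB3 and GP1BA; among the 14884 genes with a peak in at least 1 list, 50.2% fell (exact permutation test over all pairings of the 7 libraries, two-sided, Benjamini-Hochberg adjusted p below 0.05 over all these genes). The slope per doubling of the titer was -946.4 ± 130.9 bp (SE, n = 7) for ITGB3, -726.3 ± 198.9 bp for GP1BA, -635.7 ± 134.2 bp for ITGA2B and -280.2 ± 171.5 bp for GP9, beside a median of -305.2 bp over all genes tested. For ITGB3, Pearson's r between covered length and log2(titer) came to -0.96 (p = 0.00198 by exact permutation, adjusted p = 0.0133) and Spearman's rho -0.89 (exact permutation test, p = 0.0123, adjusted p = 0.0365). With the 2 libraries of the most extreme titers left out, r for ITGB3 was -0.97 (exact permutation test, p = 0.0333). For ITGA2B, r was -0.90 (exact permutation test, p = 0.00595, adjusted p = 0.0214) and rho -0.86 (exact permutation test, p = 0.0238, adjusted p = 0.0516), and r was -0.75 without those 2 libraries (exact permutation test, p = 0.167). By Spearman's rho, 2 of the 6 passed (ITGB3 and GP1BA), beside 33.9% of all genes tested. For GP1BA, r was -0.85 (exact permutation test, p = 0.0107, adjusted p = 0.0293), rho -0.89 (exact permutation test, p = 0.0123, adjusted p = 0.0365) and r without the 2 libraries -0.76 (exact permutation test, p = 0.133). GP9 did not pass, with r -0.59 (exact permutation test, p = 0.162, adjusted p = 0.211), rho -0.54 (exact permutation test, p = 0.236, adjusted p = 0.296) and r -0.70 without the 2 libraries (exact permutation test, p = 0.2). With 5 kb on either side GP1BA did not pass (r -0.50, exact permutation, adjusted p = 0.308), and with the gene body alone neither it (r -0.61, exact permutation, adjusted p = 0.382) nor ITGA2B did (r -0.59, exact permutation, adjusted p = 0.250). PF4 and PPBP were at 0 throughout this arm, and THBS1 and VWF were not tested.

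Leaving out single libraries ended some of these calls while r stayed between -0.96 and -0.85 for ITGA2B, between -0.92 and -0.77 for GP1BA and between -0.99 and -0.93 for ITGB3. Without 0.31-T32, the adjusted p was 0.106 for ITGA2B and 0.141 for GP1BA, without 20-T0.5 it was 0.0592 and 0.0517, and without 2.5-T4 it was 0.0570 for ITGB3 and 0.0601 for GP1BA (exact permutation tests). For GP1BA it was also 0.0653 without 5-T2 and 0.0873 without 10-T1a (exact permutation tests). The total covered by each list moved with the titer as well, from 32.8 Mb in 0.31-T32 to 65.3 Mb in 10-T1a. Per Mb covered by the list, r was -0.31 for ITGB3, -0.17 for GP1BA, -0.02 for ITGA2B and 0.55 for GP9, and none of the 6 passed the exact permutation test, against 612 of all genes tested. The median r of all genes tested, unscaled, was -0.83.

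**Figure D3:**
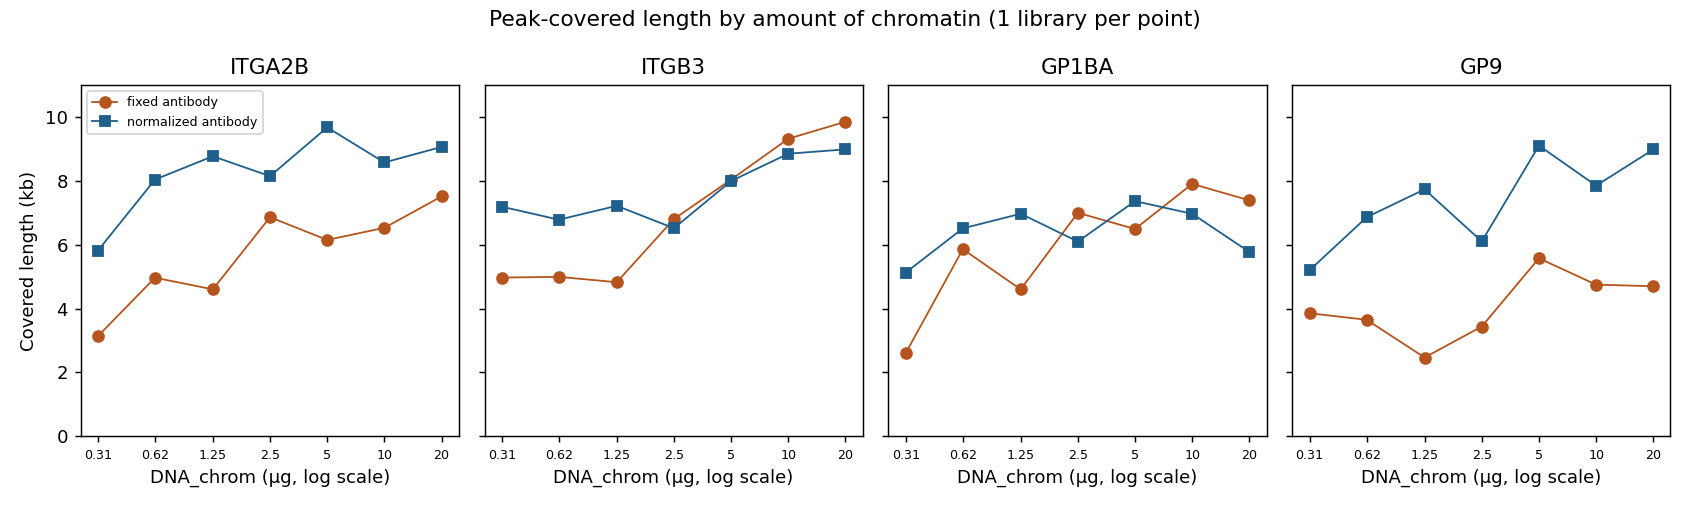
Covered length (kb) against DNA_chrom (µg, log scale) for ITGA2B, ITGB3, GP1BA and GP9, with 1 library per point and the arms in different colors; in the fixed-antibody arm (orange) the titer falls from 32 to 0.5 as DNA_chrom rises. The normalized list (blue) is above the fixed-antibody list at all 7 amounts for ITGA2B and GP9, and the lines cross for ITGB3 and GP1BA.

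The normalized arm asks whether the amount of chromatin matters at a constant titer. The covered length had an r with log2(DNA_chrom) of 0.81 for ITGB3 (exact permutation test, p = 0.0351, adjusted p = 0.222, rho 0.75, exact permutation p = 0.0663), 0.78 for GP9 (exact permutation test, p = 0.0425, adjusted p = 0.239, rho 0.79, exact permutation p = 0.0480) and 0.74 for ITGA2B (exact permutation test, p = 0.0415, adjusted p = 0.237, rho 0.75, exact permutation p = 0.0663). For GP1BA r was 0.32 (exact permutation test, p = 0.472, adjusted p = 0.662, rho 0.21, exact permutation p = 0.662). By this exact permutation test 0 of the 6 members tested passed, as did 0% of all genes after adjustment, and 3 of the 6 had an unadjusted p under 0.05, beside 19.7% of all genes tested. Without the 2 libraries farthest from the median amount, r was 0.82 for ITGB3 (exact permutation test, p = 0.1), 0.47 for GP9, 0.48 for ITGA2B and 0.42 for GP1BA (exact permutation test, p = 0.433 each). PF4 and PPBP, with their 1 shared peak in the libraries of 10 and 20 µg, gave r = 0.77 (p = 0.0952 by exact permutation, adjusted p = 0.321).

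At the same amount of DNA_chrom, ITGA2B and GP9 had more of their window covered at titer 1 than with the fixed antibody. Over the 6 amounts whose titers differ, the normalized list exceeded the fixed-antibody list by 2712.5 ± 1122.1 bp (SD, n = 6) for ITGA2B and by 3383.5 ± 1346.2 bp for GP9, and it was higher at 6 of 6 amounts for each. This direction was common, since 41.7% of all genes tested were higher at all 6 amounts, and the median difference was 871.3 bp. Per Mb covered by the list, the mean difference was 6.90 bp for ITGA2B and 23.8 bp for GP9, and negative for ITGB3 and GP1BA. These scaled values are in another unit than the differences in bp, and no level per Mb is given here to judge their size. How much of either excess goes with the total covered by each list was not tested. For ITGB3 the mean difference was 867.2 ± 1426.7 bp, with differences of 2220, 1790 and 2392 bp at the 3 lowest amounts and of -288, -45 and -866 bp at 2.5, 5 and 20 µg. For GP1BA it was 649.7 ± 1676.4 bp, higher at 4 of 6 amounts. The exact sign-flip permutation test over 64 patterns gave p = 0.0313 for ITGA2B and GP9, the smallest it allows, 0.25 for ITGB3 and 0.406 for GP1BA. Without adjustment 2 of the 6 members tested and 42.3% of all genes tested had a p under 0.05, all of them at this smallest p. After adjustment this smallest p became 0.0738 (exact sign-flip permutation), the value of ITGA2B and GP9. No gene could therefore pass, and the 0 of the 6 members and 0% of all genes that did are not a finding about the genes. At 10 µg, where the titers are the same, 10-T1b exceeded 10-T1a by 2046 bp for ITGA2B and by 3100 bp for GP9, whereas the same difference was -468 bp for ITGB3 and -937 bp for GP1BA. These differences at equal titer come from a single pair of libraries, so their spread is unknown. Their sign was that of the mean difference at unequal titers for ITGA2B and GP9, and the opposite for ITGB3 and GP1BA. No member had every normalized list above every fixed-antibody list in covered length (0 of the 6 tested, beside 5.89% of all genes tested) or the reverse (0 of the 6 tested, beside 0.0739%). The slope over DNA_chrom was compared between the arms for the 4 genes with a peak in every list. The slopes were 946.1 bp per doubling in the fixed-antibody arm and 367.3 bp in the normalized arm for ITGB3 (normalized minus fixed -578.8 bp, exact permutation of the arm labels at each amount, p = 0.0156, adjusted p = 0.871). The same difference was -610.3 bp for GP1BA (exact permutation, p = 0.0469, adjusted p = 0.877), -216.8 bp for ITGA2B (exact permutation, p = 0.688, adjusted p = 0.935) and 244.3 bp for GP9 (exact permutation, p = 0.734, adjusted p = 0.955), and 0% of all genes passed after adjustment. The p of ITGB3 is the smallest this test allows. Swapping the arms assumes no difference between them at any amount, so a constant difference, as for ITGA2B and GP9, can raise p.

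The strongest peak of each gene window was also ranked among all peaks of its own list. The strongest peak of ITGA2B, GP1BA and GP9 lay at the 83.2 to 97.7, 81.7 to 98.7 and 84.9 to 98.5 percentile of all peaks by fold enrichment. The median in the fixed-antibody arm was 90.7 for ITGA2B and GP1BA and 95.3 for GP9, and over all genes tested the median of the mean percentile in that arm was 89.2, so such ranks are common. For ITGB3 the percentile was 87.9 (5-T2) to 97.7 (titer 8) in the fixed-antibody arm, with a median of 93.5, and 75.1 (0.62-T1) to 86.2 (2.5-T1) in the normalized arm, with a median of 78.1. Every fixed-antibody list was above every normalized list, as for 2.37% of all genes tested (the reverse held for 3.59% of them and 0 of the 6 members tested), a feature that was noticed after the values had been seen and was not tested. Ranked by -log10 q instead, or with 50 kb on either side, the arms overlapped. Against the titer, the percentile passed for 0 of the 6 and for 0% of all genes after adjustment, with 12% of all genes and 0 of the 6 at an unadjusted p under 0.05 by Pearson's r. For ITGB3, r was 0.70 (exact permutation test, p = 0.0833, adjusted p = 0.470, rho 0.79, exact permutation p = 0.0480), and for GP1BA, GP9 and ITGA2B it was -0.61, -0.39 and -0.10 (exact permutation test, p = 0.157, 0.375 and 0.837, adjusted p = 0.548, 0.733 and 0.974). With the same 2 libraries left out, r was 0.62 for ITGB3, -0.50 for GP1BA, -0.65 for GP9 and 0.13 for ITGA2B.

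**Figure D4:**
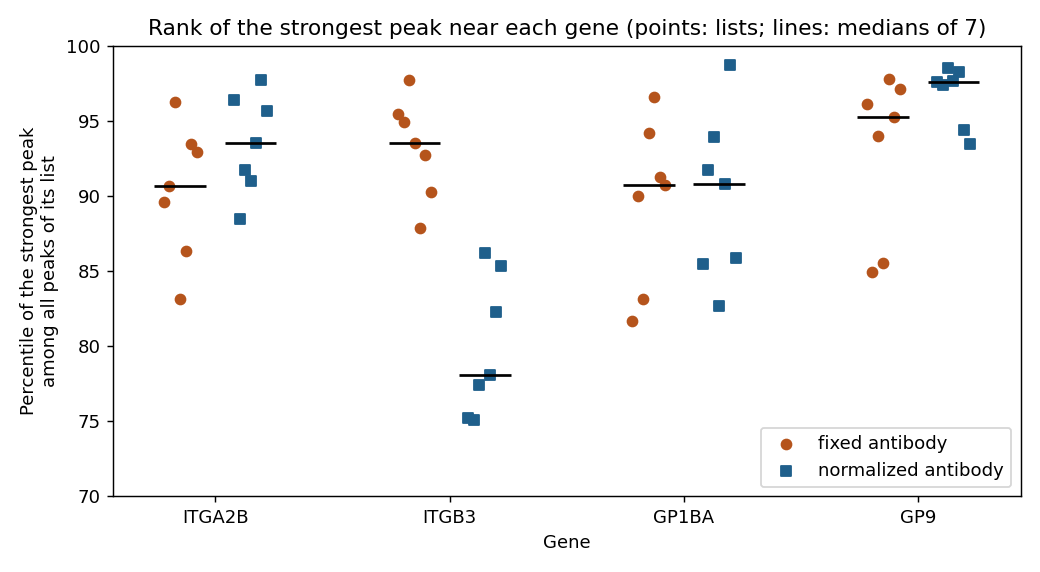
Percentile of the strongest peak of the gene window among all peaks of its list (vertical axis, from 70 to 100) for ITGA2B, ITGB3, GP1BA and GP9, with 7 lists per arm as points and their medians as lines. The ITGB3 lists fall into 87.9 to 97.7 (fixed antibody) and 75.1 to 86.2 (normalized antibody), and the arms overlap for the other genes.

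Other genes of the lineage were counted in 5 groups by role, 56 genes in all. Of these, 41 (73.2%) had a peak in all 14 lists, beside the 61.4% of all protein-coding genes, and 8 had none. Of the 48 with a peak in any list, 27 fell with the titer and 0 rose, beside 50.2% and 0.168% of all genes tested. Of the transcription factors, 10 of 12 had a peak at the TSS and in the window in all 14 lists, among them ZFPM1, the cofactor of GATA1, with a median covered length of 41009.5 bp (24112 to 46800 bp), NFE2, needed for platelet release, with 23982 bp (10973 to 25037 bp), and RUNX1 with 23428.5 bp (12605 to 27688 bp). Of the ETS factors in the group, FLI1 and ERG had no peak in any list, and ETV6 had one in its window and at its TSS in all 14 lists, with a median of 4576.5 bp. The covered length fell with the titer for 8 of the 10 factors tested, with a median r of -0.94.

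Among 16 other receptors and surface proteins, 9 had a peak in all 14 lists, and 5 of the 11 tested fell with the titer, beside 50.2% of all genes tested. The longest were TBXA2R, the thromboxane receptor, with a median of 13488 bp (8677 to 17643 bp), GP1BB, the partner of GP1BA and GP9 in their complex, with 13243 bp (9330 to 14805 bp), and GP6, a collagen receptor, with 11057.5 bp (5888 to 13825 bp). GP1BB had an r of 0.67 with the titer, which did not pass the exact permutation test (adjusted p = 0.137). ITGA2, CD36, P2RY12, CLEC1B and SELP had no peak in any list. Among 12 granule and secreted proteins, 6 had a peak in all 14 lists, 2 of the 11 tested fell with the titer, beside the same 50.2%, and F13A1, a clotting factor chain, had none. TGFB1, a growth factor, had a median of 22178 bp (14873 to 27062 bp), NBEAL2, needed for alpha granules, 17845.5 bp (12779 to 21859 bp), and PDGFA 3927.5 bp (2148 to 6984 bp).

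All 7 cytoskeleton genes had a peak at the TSS in all 14 lists, beside 48.2% of all genes, and 6 of the 7 fell with the titer, beside 50.2%. FERMT3 (kindlin-3, which activates the fibrinogen receptor) had a median of 19427 bp (13503 to 22684 bp), TUBB1 (the platelet tubulin) 18536 bp (9742 to 20652 bp) and TLN1 (talin) 15740 bp (8720 to 18494 bp). All 10 signalling genes and enzymes had a peak in the window in all 14 lists, beside 61.4% of all genes, and 6 of the 10 fell with the titer, beside 50.2%. TBXAS1 (thromboxane synthase) had 22675 bp (14478 to 24882 bp), LYN (a kinase) 22163 bp (8454 to 30616 bp) and ALOX12 (a lipoxygenase) 15355 bp (8549 to 17661 bp). The covered share of the window had a median of 21.3% over the transcription factors, 28.0% over the cytoskeleton, 8.72% over signalling, 3.49% over receptors and 0.893% over granule proteins, beside 4.51% over the 8 genes and 3.07% over all protein-coding genes. For comparison, 12 of 13 red cell surface and membrane genes had a peak in all 14 lists, with a median of 11.1%, and 12 of the 13 fell with the titer, beside 50.2% of all genes tested.

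**Figure D5:**
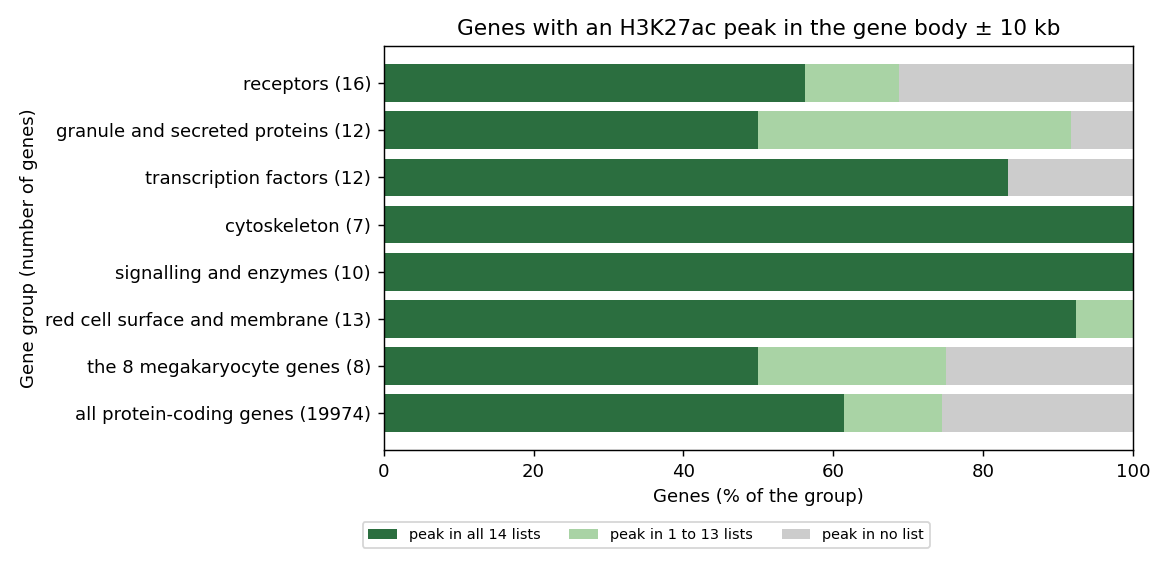
Share of the genes of each group (percent, horizontal bars) with a peak in the gene window in all 14 lists, in 1 to 13 lists or in no list. All 7 cytoskeleton and all 10 signalling genes are in the first class, the receptors (9 of 16) and the granule proteins (6 of 12) are closer to the 61.4% of all protein-coding genes, and 4 of the 8 genes are in it.

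The genes most like ITGB3, the member with the longest median covered length (7202 bp), in covered length over the 14 lists were ZNF397, PLXNC1 and MYO3B, each with a Pearson's r of 0.95. Their median covered lengths were 1.85, 2.89 and 7.80 kb. Of the 14867 genes compared, 141 had an r over 0.9, and the 14 points share the antibody, the cells and the total covered by each list.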

How the data were processed

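H3K27ac ChIP-seq peak lists of 14 K562 libraries were used, and the 2 input libraries enter through peak calling only. Alignment by the authors used BWA, and each library was given its own peak calls by MACS2 within Partek Flow. The submitters' processing notes name CASAVA 1.4 and BWA 0.5.9 and the build hg38. The methods name hg19 for these libraries, but peaks run past the GRCh37 chromosome ends on 7 of 23 chromosomes, so positions were read as GRCh38. The deposited values are a fold enrichment (a ratio over the local background) and the -log10 p-value and -log10 q-value of each peak. The deposited lists reach a q-value of 5.00%, so a -log10 q of at least 2 was required here. Counts of reads were not used.

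Covered length is the number of bases of a gene window inside peaks. Lists called with more length overall give longer values, and a peak belongs to every gene whose window it touches. Peaks of the 14 lists that touched or overlapped were merged into regions, and regions with a peak in at least 10 lists are described. The TSS came from the RefSeq promoter table for 15812 genes and otherwise from the gene record with the GENCODE strand (3818 genes). Trends used Pearson's r with exact permutation, and matched differences an exact sign-flip test paired by DNA_chrom. Benjamini-Hochberg adjustment covered 14884 genes. Libraries of a trend are single samples of different conditions. The functions were tested on simulated data. The members, the gene lists, the motifs and the rules were chosen with earlier results of these data known. Named genes are all 8 members, the 3 of each role group with the longest median covered length, the genes of a group without a peak, and the 3 genes most like ITGB3. Alternatives were other q-values, windows, scales, ranks and left-out libraries. Computation used Python 3.11.15, numpy 2.4.6, pandas 2.3.3, scipy 1.17.1 and matplotlib 3.10.9.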

Additional observations from a re-analysis of the deposited data

Results flagged for a closer look

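Chance sets a lone library apart in about 1 in 20 groups of libraries. The covered length of ITGA2B in the normalized arm was lowest in 0.31-T1, at 5808 bp, and the nearest of the other 6 lists was at 8037 bp, a gap of 0.577 of the whole range. By the counts in the paper, this library also had the lowest share of uniquely mapped read pairs, and a link between these was not tested. The strongest-peak percentile of PF4 in the normalized arm was highest in 20-T1, at 36.5, and the nearest list, 10-T1b, was at 8.82, a gap of 0.758 of the range. The value of PPBP is the same 36.5, since the genes share this peak. The other 5 lists had no peak there and were entered as 0, which is not a measurement, so this gap says nothing about the spread of the lists.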

How the results depend on the processing

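The count of members with a peak in all 14 lists was 4 at every q-value tried. It was 3 with the gene body alone and 6 with 50 kb on either side. Of all protein-coding genes, 51.6% to 62.1% had such peaks at these q-values, 52.5% with the gene body alone and 73.9% with 50 kb. The count of members falling with the titer was 2 with 5 kb on either side (without GP1BA) and 1 with the gene body alone (ITGB3). Of all genes tested, 47.0% passed in either direction with 5 kb and 29.6% with the gene body alone, beside 50.4% with 10 kb. The member count was 0 per Mb covered by the list. It was also 0 without the 2 libraries farthest from the median, where fewer pairings raise the smallest p the exact permutation test allows. There r was -0.97 for ITGB3, -0.76 for GP1BA, -0.75 for ITGA2B and -0.70 for GP9, so this 0 does not show that the trends ended. Without each library in turn the member count was 1 to 3. Of the whole table, 1679 genes were left without 0.31-T32 and 2538 without 2.5-T4, against 7497 in all. GP9 fell with a -log10 q of at least 3 or 5 (adjusted p = 0.0205 and 0.0262, exact permutation). The matched difference is paired by DNA_chrom. With no replicate block, the arm labels permuted among 12 libraries, 2 genes passed (ITGA2B and GP9, with 3961 of all genes), and 2 passed with all 7 amounts (5036 of all genes). Directions turned for values that were not called: the GP1BA matched difference was -33.7 bp in the gene body and -23.1 bp per Mb, and that of ITGB3 -25.1 bp per Mb. The r of GP9 with the titer was 0.55 per Mb. The r of GP1BA with DNA_chrom was -0.57 per Mb, -0.074 on a linear scale, and -0.217 (without 0.31-T1) to 0.724 (without 20-T1) with each library left out. The r of the percentile with the titer was 0.41 for GP9 in the gene body, and for ITGA2B 0.26 with 50 kb, 0.132 without the 2 farthest libraries, and -0.272 to 0.0764 with each library left out (0.0344 without 10-T1a). The gap between the arms in the ITGB3 percentile, 1.66, was -10.1 with 50 kb and -4.43 by -log10 q, alternatives added after the data were seen, and 1.78 to 2.57 at the other settings. The cause was not tested.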

Other observations

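Some genes of other cell types had peaks in their windows. CD79A, a B cell receptor chain, had a peak within 1 kb of its TSS in all 14 lists, with a median covered length of 8776.5 bp. PECAM1, an adhesion protein of endothelial cells and platelets, had a peak in its window in all 14 lists, with a median covered length of 2970.0 bp, unlike the endothelial genes CDH5, TEK and KDR. COL1A1, a fibroblast collagen, had 2638 bp in its window and no peak within 1 kb of its TSS, and COL1A2 and DCN had no peak. MS4A1, CD8A and NEUROD1 had no peak in any list.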
